A study of Mus musculus with 8 samples.

Results

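Lysosomal enzymes that do not act on glycosaminoglycans, lysosomal membrane and lipid transfer proteins, and the subunits of the vacuolar proton pump (V-ATPase) were followed over the ascending aortas of 8 mice. The members were 24 genes listed by name together with every gene whose platform symbol begins with Atp6v0 or Atp6v1. The rule found 43 genes with 60 probes, of the 16110 named genes and 23141 named probes in the whole series. Of the 24 listed genes 22 had a probe, and Npc1 and Aga were not analysed here. The other 21 genes encode pump subunits, 13 of the V1 sector and 8 of the V0 sector. The rule uses names and no measured value, but the list was drawn up with earlier results of these data known.

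Total RNA from each mouse was hybridised to 1 Illumina array. The 3 normal mice (C57BL/6 strain) were females of 5.8 and 7 months and a male of 6.4 months. Mucopolysaccharidosis VII (MPS VII) is an inherited lack of beta-glucuronidase, the lysosomal enzyme encoded by Gusb. The MPS VII mice, of the same strain, were labelled by genotype only as MPS VII. Neither the allele nor the way dilatation was judged is given in the sources used here. The 2 MPS VII mice without dilatation were a female of 5.8 months and a male of 6.7 months, and the 3 with a dilated aorta were females of 7.8 and 9.1 months and a male of 6 months. The dilated group was thus on average the oldest. No treatment is named for any group.

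Lysosomes are acidic compartments in which hydrolases take apart proteins, glycans and lipids that reach them by endocytosis, phagocytosis or autophagy. The V-ATPase keeps them acidic: its V1 sector in the cytosol splits ATP and turns a rotor, and its V0 sector in the membrane carries the protons. When one lysosomal enzyme is missing its substrate builds up, and many lysosomal genes are under common control of transcription factors of the TFEB family, which bind a short palindromic element near the start of their targets. Macrophages are rich in lysosomes, and smooth muscle cells and fibroblasts have them too.

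Intensities are the deposited values on a linear scale, and values over 25.6 intensity units were taken as above background. Between 45% and 45.2% of all probes did so on each array, and arrays of 1 group correlated across genes at 0.971 to 0.989. Gusb, the gene at fault in MPS VII, averaged 1086 in normal, 118 in not dilated and 197 in dilated aorta, and was lower on all 5 MPS VII arrays than on any normal one. All 10 contractile smooth muscle markers passed the background filter, which asked for 2 or more arrays over that value. Of the 43 member genes, 37 passed it (20 listed genes, 11 V1 and 6 V0 subunits) and were tested, each by its brightest probe, among 10040 genes. The other 6 were the alpha-fucosidase gene Fuca1, the alpha-galactosidase gene Gla and the pump genes Atp6v0a4, Atp6v0d2, Atp6v1e2 and Atp6v1g3, which were above background on 0 arrays, with group means from -18.6 to 3.28.

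The element bound by the TFEB family was looked for in RefSeq promoter windows (build GRCm38.p6), which run from 250 bases before to 50 bases after a start site and were found for 36 of the 43 genes. The E-box letters CACGTG stood in the window of 10 of the 36 genes (27.8%), against 8.09% of the 27025 genes in the table and 11.6% of those tested here. The 8-letter core TCACGTGA, which contains the E-box, stood in 6 of the 36 (16.7%), against 1.13% of all genes in the table and 2.07% of those tested. Both strings read alike on both strands. Lamp1 and Arsa have the E-box alone, as do Atp6v0b and Gaa, which are not shown. The stretches around the matches are shown for the 6 genes with the core and for Lamp1 and Arsa. They run 5′ to 3′ on the gene's strand, with the matched letters in capitals.
Cln3, chr7:126583332-126583405, minus strand: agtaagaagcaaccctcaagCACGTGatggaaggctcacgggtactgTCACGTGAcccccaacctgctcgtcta
Mcoln1, chr8:3500428-3500499, plus strand: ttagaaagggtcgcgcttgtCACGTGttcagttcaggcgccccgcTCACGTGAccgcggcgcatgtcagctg
Atp6v0d1, chr8:105566042-105566087, minus strand: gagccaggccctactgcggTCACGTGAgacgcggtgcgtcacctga
Atp6v0e, chr17:26676379-26676424, plus strand: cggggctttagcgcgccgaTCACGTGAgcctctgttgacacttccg
Atp6v1a, chr16:44139365-44139410, minus strand: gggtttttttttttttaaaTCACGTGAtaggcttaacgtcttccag
Gla, chrX:134601174-134601252, minus strand: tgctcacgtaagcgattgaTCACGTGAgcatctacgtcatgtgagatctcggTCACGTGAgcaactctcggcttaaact
Lamp1, chr8:13159080-13159171, plus strand: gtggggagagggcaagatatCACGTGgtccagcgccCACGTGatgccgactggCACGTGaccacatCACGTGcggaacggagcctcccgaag
Arsa, chr15:89477415-89477460, minus strand: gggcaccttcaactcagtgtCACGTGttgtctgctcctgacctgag
Gla held the core in 2 places, Cln3 and Mcoln1 each held the core and a further E-box, and Lamp1 held 4 E-boxes within 92 bases. In Atp6v0d1 and Atp6v0e the core lay over or just after the start site. A match is a string of letters in a window, and binding was not measured.

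Of the 3 genes Man2b1, Psap and Npc2, which had rises among the largest of the listed members in dilated aorta, none held either string in a window of 300 bases. Psap has 2 windows in the table, both without a match, and the one lying first on the chromosome is shown with the single windows of the other two.
Man2b1, chr8:85083019-85083318, plus strand: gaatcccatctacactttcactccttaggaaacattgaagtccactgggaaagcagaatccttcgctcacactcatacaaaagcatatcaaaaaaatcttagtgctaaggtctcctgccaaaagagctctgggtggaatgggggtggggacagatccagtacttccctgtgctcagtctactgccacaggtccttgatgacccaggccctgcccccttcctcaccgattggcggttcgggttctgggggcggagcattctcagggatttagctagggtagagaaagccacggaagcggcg
Psap, chr10:60277378-60277677, plus strand: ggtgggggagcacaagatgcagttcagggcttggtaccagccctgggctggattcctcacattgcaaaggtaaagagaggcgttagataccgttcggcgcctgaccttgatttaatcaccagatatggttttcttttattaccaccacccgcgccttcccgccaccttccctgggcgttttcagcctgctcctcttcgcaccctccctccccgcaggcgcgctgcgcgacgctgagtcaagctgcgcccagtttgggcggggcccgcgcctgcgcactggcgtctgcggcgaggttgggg
Npc2, chr12:84773063-84773362, minus strand: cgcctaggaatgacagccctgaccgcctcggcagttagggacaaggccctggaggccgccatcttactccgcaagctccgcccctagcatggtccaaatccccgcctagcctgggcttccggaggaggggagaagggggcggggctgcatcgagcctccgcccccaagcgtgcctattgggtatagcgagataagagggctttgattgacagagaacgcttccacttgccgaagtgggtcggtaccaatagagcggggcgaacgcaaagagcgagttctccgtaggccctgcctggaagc
Of all genes tested, 9.82% were called higher in dilated aorta. Among the 31 tested genes with a window, 3 of the 9 with an E-box rose there (median log2 difference 0.22, range -0.19 to 0.62). Without an E-box 11 of the 22 rose (median 0.49, range -0.36 to 0.99). With the core 2 of 5 rose (median 0.22, range -0.19 to 0.62), and without it 12 of 26 (median 0.39, range -0.36 to 0.99). The ranges overlapped widely, and a difference between genes with and without a match was not tested. Sequence outside the windows was not searched.

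In dilated against normal aorta, 15 of the 37 genes rose and 0 fell (limma, adjusted p under 0.05 over all 10040 genes), where 9.82% of all genes were called higher and 10.4% lower. By role, 6 of 11 enzymes, 3 of 3 activators and lipid transfer proteins, 3 of 6 membrane proteins, 2 of 6 V0 subunits and 1 of 11 V1 subunits rose. The median log2 difference of the 37 genes was 0.38, that of the 20 listed genes 0.49 and that of the 17 pump genes 0.21, where the median of all genes was -0.054. At an unadjusted p under 0.05, 21 of the 37 lay higher and 1 lower, where 1617 of all 10040 genes lay higher and 2041 lower. In bulk tissue, more cells of a type and more RNA per cell cannot be told apart. The count of 15 was 9 with age as a covariate, which ended the calls of Arsa, Atp6v0d1, Cd63, Gm2a, Lipa, Manba and Tpp1. Of the 15 calls 8 were kept there, so the 9 include a member not called without the covariate. With an offset of 16, values floored at 16 or no filter, the calls of Arsa, Atp6v0d1 and Cd63 ended. The count was 7 without normal replicate 1, 9 without normal replicate 3, 9 without dilated replicate 1 and 8 without dilated replicate 2. Man2b1, Psap, Npc2, Atp6v1b2, Atp6v0a1, Neu1 and Lamp2 passed under all 21 alternatives run.

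In MPS VII aorta without dilatation, 3 of the 37 genes rose against normal and 0 fell, where 4.84% of all genes were called higher and 5.17% lower. These were Man2b1, Atp6v1b2 and Psap, which rose in dilated aorta too, and both comparisons use the same 3 normal arrays. The median log2 difference was 0.26, where all genes had -0.059. At an unadjusted p under 0.05, 13 of the 37 lay higher and 1 lower, where 1353 of all 10040 genes lay higher and 1756 lower. With 2 arrays in the group the count was 1 without either not dilated array, 1 without normal replicate 1 and 0 without normal replicate 3. It was 7 with array quality weights and 5 with cyclic loess.

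With both MPS VII groups set against normal, 15 of the 37 rose and 0 fell, where 11.1% of all genes were called higher and 13.3% lower. They were 10 of the 20 listed genes (Man2b1, Psap, Npc2, Neu1, Manba, Cln3, Lamp2, Arsa, Gm2a and Tpp1) and 5 of the 17 pump genes (Atp6v1b2, Atp6v0a1, Atp6v1d, Atp6v1c1 and Atp6v1g1). Man2b1, Psap, Npc2, Neu1, Atp6v1b2 and Atp6v0a1 passed under all 20 alternatives run, and each of the other 9 lost its call without 1 array or more. The count was 9 with values floored at 16, 6 without normal replicate 1, 8 without normal replicate 3, 9 without not dilated replicate 1 and 8 without dilated replicate 2. Every MPS VII array lay above every normal array for 22 of the 37 genes (59.5%), against 12.5% of all genes, and below for 0, against 19.6% of all genes. By array, between 30 and 34 of the 37 genes lay above their normal mean on each of the 5 MPS VII arrays. The normal arrays set that mean, so their own counts of 15 to 19 are fixed near the middle and are no comparison. The share of all genes on each array was not computed. In the contrast of both groups with normal, 33 of the 37 genes had a log2 difference above 0, against 44.2% of all genes. The median of the 37 log2 values relative to the normal mean was 0.22 and 0.27 on the not dilated arrays and 0.38, 0.42 and 0.32 on the dilated ones.

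**Figure D1:**
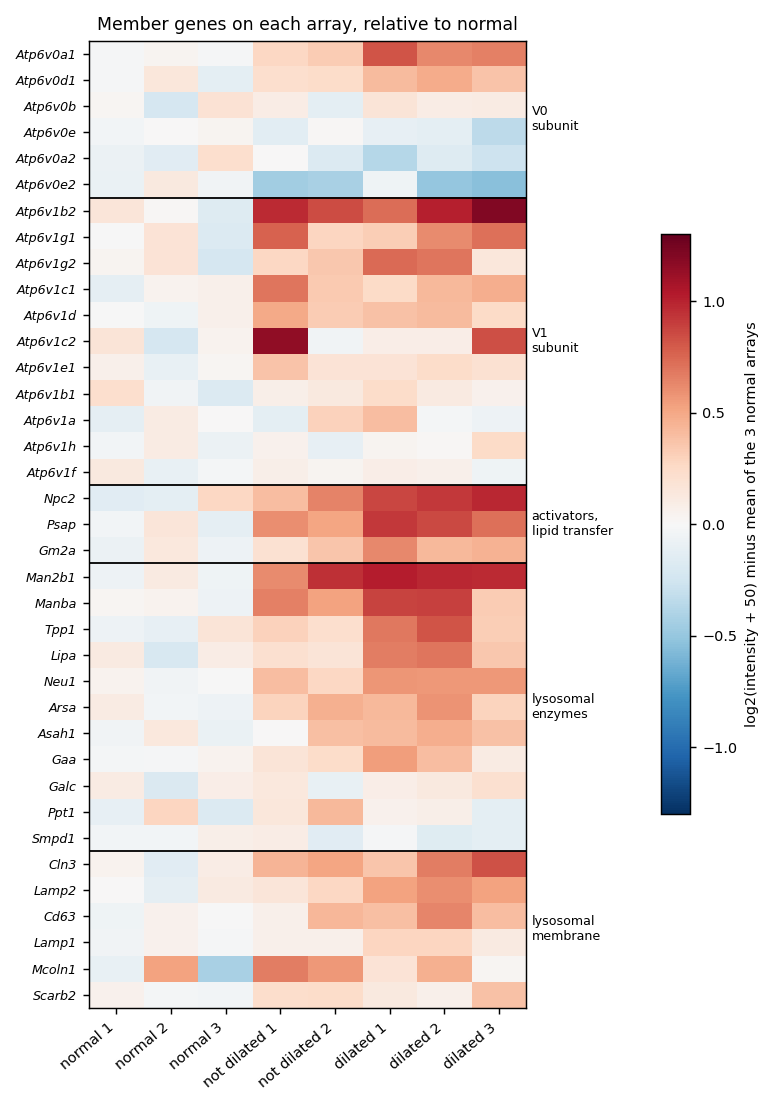
Each cell gives log2(intensity + 50) of 1 gene on 1 array minus the mean of the 3 normal arrays, for the 37 tested genes grouped by role, with red above and blue below normal. Red cells fill most of the 5 MPS VII columns for enzymes, activators and membrane proteins, while the V0 rows hold both colours.

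Man2b1, the lysosomal alpha-mannosidase that trims mannose from glycoprotein glycans, measured 1868, 2128 and 1886 in the normal replicates 1 to 3, 3018 and 3834 in the not dilated replicates 1 and 2, and 4014, 3913 and 3870.4 in the dilated replicates 1 to 3. All 5 MPS VII arrays lay above the normal ones, and the 3 dilated arrays lay within a narrow range. In log2 units the rise was 0.99 with dilatation (SE 0.13, limma adjusted p = 0.00163). Without dilatation it was 0.78 (SE 0.14, limma adjusted p = 0.0173). The second call ended without normal replicate 1, normal replicate 3 or not dilated replicate 2 (limma adjusted p from 0.0554 to 0.0688). Manba, the beta-mannosidase that acts on the last mannose bond, measured 772, 784 and 722 in normal, 1226 and 1116 in not dilated, and 1441, 1447 and 967 in dilated aorta. The groups of normal and MPS VII arrays did not overlap, and dilated replicate 3 was the lowest of the 5 MPS VII arrays. It rose by 0.70 in dilated aorta (SE 0.16, limma adjusted p = 0.0186), a call that ended without normal replicate 1 or 3 or dilated replicate 1 or 2 (limma adjusted p from 0.0505 to 0.0617). Without dilatation its log2 difference was 0.59 (limma adjusted p = 0.0694).

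Neu1, the lysosomal sialidase, which removes terminal sialic acid, was at 825, 770.2 and 793 in normal, 1069 and 969 in not dilated, and 1213, 1204 and 1199 in dilated aorta. These 3 ranges lay one above the other without overlap. The rise in dilated aorta was 0.57 (SE 0.11, limma adjusted p = 0.008), and without dilatation the log2 difference was 0.34 (SE 0.12, limma adjusted p = 0.0979). Arsa, arylsulfatase A, which takes the sulphate off sulphatide, gave 701, 626 and 612 in normal, 802 and 907 in not dilated, and 884, 995 and 799.5 in dilated aorta. Its MPS VII arrays were all above normal and the 2 MPS VII groups overlapped. It rose by 0.43 in dilated aorta (SE 0.13, limma adjusted p = 0.0408), but that call ended without any 1 of the 8 arrays except dilated replicate 3 (limma adjusted p from 0.051 to 0.133).

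Lipa, the acid lipase that frees cholesterol and fatty acids from lipoprotein lipids, measured 354, 273 and 348 in normal, 383 and 369 in not dilated, and 543, 557 and 425 in dilated aorta. The not dilated arrays lay just above the highest normal array, and the dilated ones lay above both. It rose by 0.57 in dilated aorta (SE 0.14, limma adjusted p = 0.0244), with 0.19 without dilatation (limma adjusted p = 0.452). Tpp1, a peptidase that cuts tripeptides from protein ends, gave 376, 364 and 450.2 in normal, 496 and 469 in not dilated, and 664, 733 and 506 in dilated aorta. It rose by 0.61 in dilated aorta (SE 0.15, limma adjusted p = 0.0244), with all 5 MPS VII arrays above normal. The Lipa call ended without any 1 normal array or without dilated replicate 1 or 2 (limma adjusted p from 0.0512 to 0.0811), and that of Tpp1 without normal replicate 1 or 2 or dilated replicate 1 or 2 (limma adjusted p from 0.0617 to 0.0816).

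The other 5 tested enzymes did not pass in dilated minus normal. Asah1, acid ceramidase, averaged 4775 ± 401 (SD, n = 3) in normal, 5531 ± 1066 (n = 2) in not dilated and 6394 ± 215 (n = 3) in dilated aorta (log2 difference 0.42, limma adjusted p = 0.0573). Gaa, the acid glucosidase that degrades glycogen, averaged 1336 ± 38.1, 1540.1 ± 54.6 and 1727 ± 268 in the same order (log2 difference 0.35, limma adjusted p = 0.0982). Values of Ppt1, which removes palmitate from proteins, overlapped between groups, at 286 ± 59.8, 356 ± 53.4 and 283 ± 24.6 in normal, not dilated and dilated aorta (log2 difference 0.0025 in dilated minus normal, 95% interval -0.35 to 0.35). For Smpd1, acid sphingomyelinase, the means were 4588 ± 200.5, 4531 ± 552 and 4275 ± 219, and its interval in dilated minus normal ran from -0.37 to 0.17. Galc, which splits galactosylceramide, lay close to background at 25.8 ± 8.18 in normal, 26.7 ± 8.74 in not dilated and 33.3 ± 3.75 in dilated aorta.

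The activator and lipid transfer genes all rose in dilated aorta. Psap encodes prosaposin, the precursor of the saposins, which present sphingolipids to hydrolases, and measured 10298, 11770 and 9750 in normal, 16146 and 15083 in not dilated, and 20043, 19166 and 17450 in dilated aorta. The 3 ranges did not overlap. It rose by 0.83 in dilated aorta (SE 0.12, limma adjusted p = 0.0032). In aorta without dilatation the rise was 0.56 (SE 0.14, limma adjusted p = 0.038), and this call ended under 11 of the 21 alternatives. They were leaving out normal replicate 1 or 3, either not dilated array or dilated replicate 2, an offset of 16, values floored at 16, no filter, sex as a covariate, the replicate block and a fit of only those 2 groups (limma adjusted p from 0.0189 to 0.197 over all 21). Npc2, which carries cholesterol from internal membranes to the limiting membrane, gave 188, 190.3 and 267 in normal, 297 and 362 in not dilated, and 429.6, 446 and 467 in dilated aorta. Here too the 3 ranges were apart. It rose by 0.92 in dilated aorta (SE 0.15, limma adjusted p = 0.00414). The log2 difference without dilatation was 0.53 (limma adjusted p = 0.0704). Gm2a, the activator that lifts GM2 ganglioside out of the membrane for hexosaminidase A, measured 2473, 2866 and 2487 in normal, 2993 and 3366 in not dilated, and 4032, 3499 and 3577 in dilated aorta. It rose by 0.50 in dilated aorta (SE 0.12, limma adjusted p = 0.0228), a call that ended without normal replicate 1 or 3 or dilated replicate 1 (limma adjusted p from 0.064 to 0.0814). Its log2 difference without dilatation was 0.28 (limma adjusted p = 0.199).

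**Figure D2:**
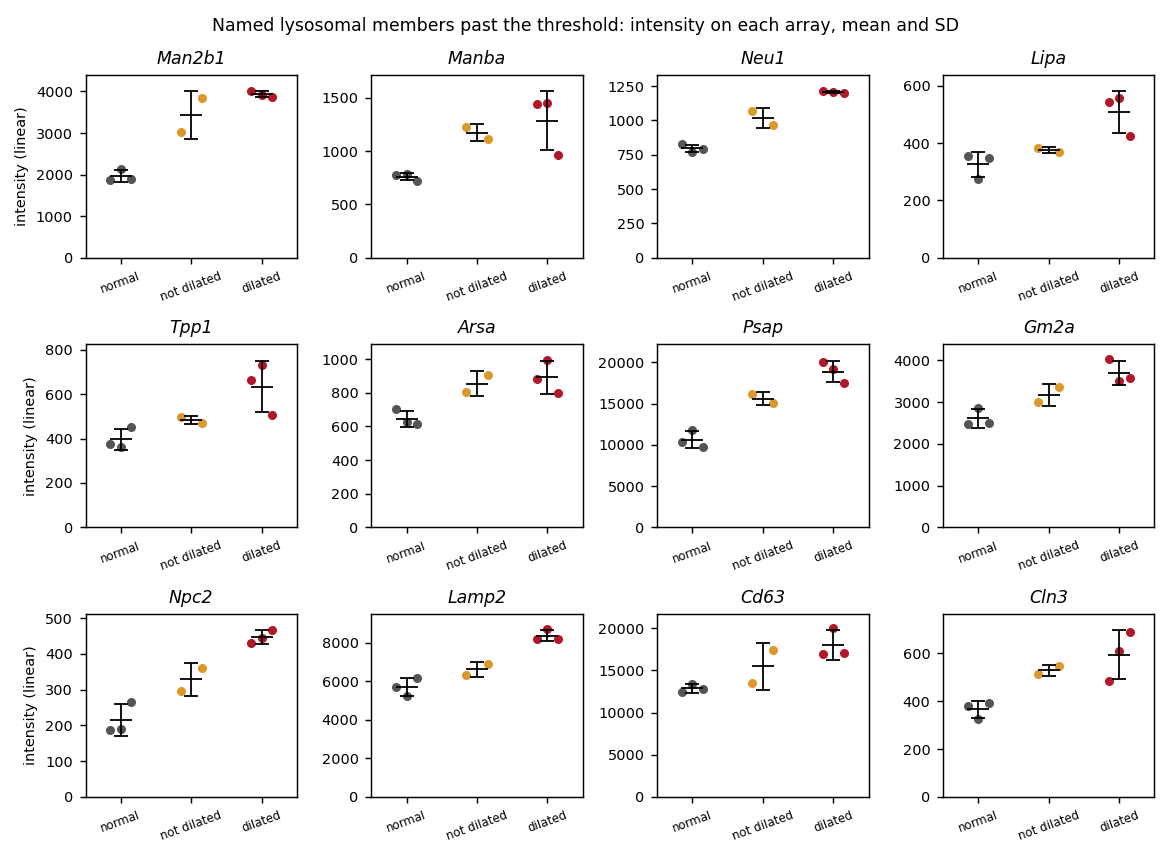
Points are the intensities of single arrays (linear axis from 0) and bars the mean and SD of the 12 listed genes that passed in dilated minus normal, for 3 normal, 2 not dilated and 3 dilated aortas. In every panel the MPS VII points lie above the normal ones, and for Man2b1, Neu1, Lipa, Tpp1, Psap, Gm2a, Npc2 and Lamp2 the ranges of the 3 groups are separate.

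Among membrane proteins Lamp2, one of the 2 abundant glycoproteins that line the lysosomal membrane, measured 5705, 5218 and 6161 in normal, 6348 and 6870 in not dilated, and 8194, 8687 and 8206 in dilated aorta. The dilated arrays lay above all others. It rose by 0.55 in dilated aorta (SE 0.12, limma adjusted p = 0.0123), against a log2 difference of 0.22 without dilatation (limma adjusted p = 0.284). Lamp1, its relative, gave 8392, 8998 and 8542 in normal, 9076.5 on both not dilated arrays, and 10489, 10489 and 9341 in dilated aorta. Equal values on different arrays arise because the deposited normalization gave all arrays nearly the same set of values. Every MPS VII array was above normal, but the log2 difference of 0.22 in dilated aorta did not pass (95% interval -0.026 to 0.47, limma adjusted p = 0.175).

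Cd63, a tetraspanin of late endosomes and lysosomes, was at 12396, 13440 and 12857 in normal, 13507 and 17450 in not dilated, and 16949, 20043 and 17032 in dilated aorta. Not dilated replicate 1 lay just above the highest normal array. It rose by 0.48 in dilated aorta (SE 0.14, limma adjusted p = 0.0383), a call that ended without any 1 of the 3 normal or 3 dilated arrays (limma adjusted p from 0.057 to 0.124). Cln3, a membrane protein whose loss causes juvenile Batten disease, measured 381, 327 and 393 in normal, 514 and 546 in not dilated, and 485, 611 and 688 in dilated aorta. It rose by 0.62 in dilated aorta (SE 0.15, limma adjusted p = 0.0188), which ended without normal replicate 1 or 2 or dilated replicate 2 or 3 (limma adjusted p from 0.0508 to 0.0585), and had a log2 difference of 0.48 without dilatation (limma adjusted p = 0.0892). Scarb2, the receptor that takes glucocerebrosidase to lysosomes, averaged 471 ± 19, 562 ± 2.98 and 547 ± 71.5 in normal, not dilated and dilated aorta (log2 difference 0.19 in dilated minus normal, limma adjusted p = 0.289). The calcium channel gene Mcoln1 averaged 57.2 ± 36.6, 108 ± 8.4 and 71.3 ± 18.9, and its normal arrays ranged from 27 to 98.

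In the V1 sector, Atp6v1b2, which encodes the B subunit found in most tissues, measured 637, 573 and 499.5 in normal, 1155 and 1065 in not dilated, and 969, 1193 and 1374 in dilated aorta. All MPS VII arrays lay above normal and the 2 MPS VII groups overlapped. It rose by 0.98 in dilated aorta (SE 0.15, limma adjusted p = 0.00396). Its rise without dilatation was 0.91 (SE 0.17, limma adjusted p = 0.019), and the second call ended without normal replicate 3 or not dilated replicate 1 (limma adjusted p = 0.0635 and 0.116). No other V1 gene passed in either comparison. Atp6v1b1, the kidney-type B subunit, was above background on 2 of the 8 arrays, with group means of 18.5 to 24.9.

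The stalk and rotor genes Atp6v1c1, Atp6v1d and Atp6v1g1 passed only with both MPS VII groups in 1 contrast. Atp6v1c1 gave 175, 201 and 205 in normal, 344 and 257 in not dilated, and 238, 277 and 287 in dilated aorta (log2 difference 0.45, SE 0.12, limma adjusted p = 0.0298). Atp6v1d, of the rotor, gave 909, 875 and 957 in normal, 1301 and 1156 in not dilated, and 1206, 1232 and 1096 in dilated aorta (log2 difference 0.38, SE 0.10, limma adjusted p = 0.0289). Atp6v1g1 gave 219, 255 and 189 in normal, 409.8 and 278 in not dilated, and 286, 363 and 394 in dilated aorta (log2 difference 0.54, SE 0.16, limma adjusted p = 0.0368). For each of the 3 genes the MPS VII arrays lay above the normal ones and not dilated replicate 1 was the highest array. Their calls ended without normal replicate 1 or 3, not dilated replicate 1 or dilated replicate 2, that of Atp6v1g1 also without dilated replicate 3 and the other two without normal replicate 2 (limma adjusted p from 0.0549 to 0.13).

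Atp6v1e1, of the stalk, measured 8194, 7286 and 7951 in normal, 10095 and 8844 in not dilated, and 8861, 9228 and 8987 in dilated aorta. Its MPS VII arrays lay above normal, with a log2 difference of 0.24 for both groups together (95% interval 0.010 to 0.47, limma adjusted p = 0.111). The catalytic subunit gene Atp6v1a had means of 562 ± 47, 607 ± 136 and 614 ± 125 in normal, not dilated and dilated aorta. In dilated minus normal its interval ran from -0.28 to 0.49. Atp6v1f, of the rotor, had means of 8146 ± 671, 8451 ± 169 and 8332 ± 432, with an interval from -0.23 to 0.29. Atp6v1h, which regulates the pump, had means of 3253 ± 224, 3197 ± 272 and 3488 ± 326, with an interval from -0.18 to 0.38. All 3 genes overlapped between groups. The second isoforms Atp6v1c2 and Atp6v1g2 were dim, at 37.5 ± 11.6, 88.4 ± 76.9 and 63.5 ± 36.6 for the first and 26.5 ± 10.4, 44.1 ± 3.81 and 61.3 ± 23.7 for the second, with log2 differences of 0.34 and 0.52 (limma adjusted p = 0.455 and 0.0704).

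In the V0 sector, Atp6v0a1, an isoform of the large subunit through which protons pass, measured 924, 959 and 929.7 in normal, 1136 and 1193 in not dilated, and 1694, 1469.8 and 1509 in dilated aorta. The 3 ranges did not overlap. It rose by 0.70 in dilated aorta (SE 0.11, limma adjusted p = 0.00415). The log2 difference without dilatation was 0.30 (SE 0.12, limma adjusted p = 0.14). Atp6v0d1, which joins the ring to the rotor, gave 1871, 2097 and 1726 in normal, 2217 and 2238 in not dilated, and 2526, 2667 and 2466 in dilated aorta. It rose by 0.42 in dilated aorta (SE 0.12, limma adjusted p = 0.0338), a call that ended without normal replicate 1 or 3 or any 1 dilated array (limma adjusted p from 0.0579 to 0.105).

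Atp6v0a1 and Atp6v0a2, isoforms of the large V0 subunit, had log2 differences of opposite sign, but only that of Atp6v0a1 in dilated aorta passed. Atp6v0a2 averaged 644 ± 95.9 in normal, 603 ± 57.7 in not dilated and 524 ± 40.7 in dilated aorta (log2 difference -0.27 in dilated minus normal, 95% interval -0.58 to 0.041, limma adjusted p = 0.189). The 2 isoforms of the small e subunit, Atp6v0e and Atp6v0e2, both had negative differences that did not pass. Atp6v0e averaged 6754 ± 162 in normal, 6487 ± 496 in not dilated and 5931 ± 529 in dilated aorta (log2 difference -0.19, limma adjusted p = 0.273). Atp6v0e2 averaged 130.2 ± 14.4, 83.2 ± 1.76 and 91.5 ± 27.7 in normal, not dilated and dilated aorta, and dilated replicate 1, at 123, lay within the normal range. Its log2 difference of -0.36 in dilated aorta did not pass (limma adjusted p = 0.119), and without dilated replicate 1 it was -0.52 and passed (limma adjusted p = 0.0327). Atp6v0b, a part of the ring, averaged 2287 ± 328 in normal, 2259 ± 248.8 in not dilated and 2481 ± 66 in dilated aorta, with an interval from -0.18 to 0.43.

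**Figure D3:**
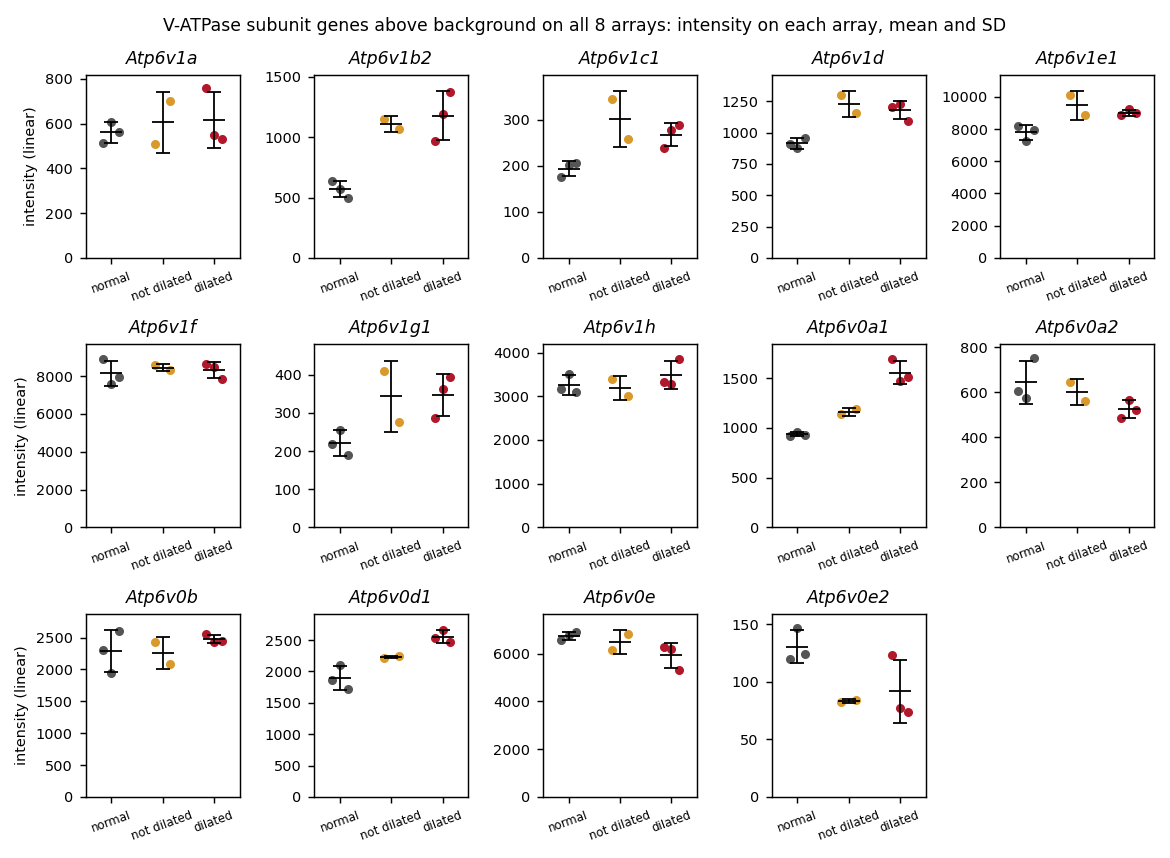
Points are the intensities of single arrays (linear axis from 0) and bars the mean and SD for the 14 pump genes above background on all 8 arrays, V1 genes first. For Atp6v1b2, Atp6v1c1, Atp6v1d, Atp6v1e1, Atp6v1g1, Atp6v0a1 and Atp6v0d1 every MPS VII point lies above every normal point. The MPS VII and normal points of the other genes, among them Atp6v1a, Atp6v1f, Atp6v1h and Atp6v0b, overlap.

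No member differed between dilated and not dilated MPS VII aorta (limma, adjusted p under 0.05), where 0 of all 10040 genes (0% in each direction) passed, and 560 genes lay higher and 350 lower at an unadjusted p under 0.05. Of the members, 4 lay higher and 0 lower at that level. Atp6v0a1 had a log2 difference of 0.40 (95% interval 0.12 to 0.68, limma adjusted p = 0.402), Npc2 0.40 (0.028 to 0.76, limma adjusted p = 0.517), Lipa 0.38 (0.019 to 0.75, limma adjusted p = 0.532) and Lamp2 0.34 (0.047 to 0.63, limma adjusted p = 0.49). For Atp6v1b2 the difference was 0.071 (-0.32 to 0.46) and for Man2b1 0.21 (-0.12 to 0.53). The 12 genes that rose in dilated aorta but did not pass without dilatation are thus not shown to differ between the MPS VII groups.

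**Figure D4:**
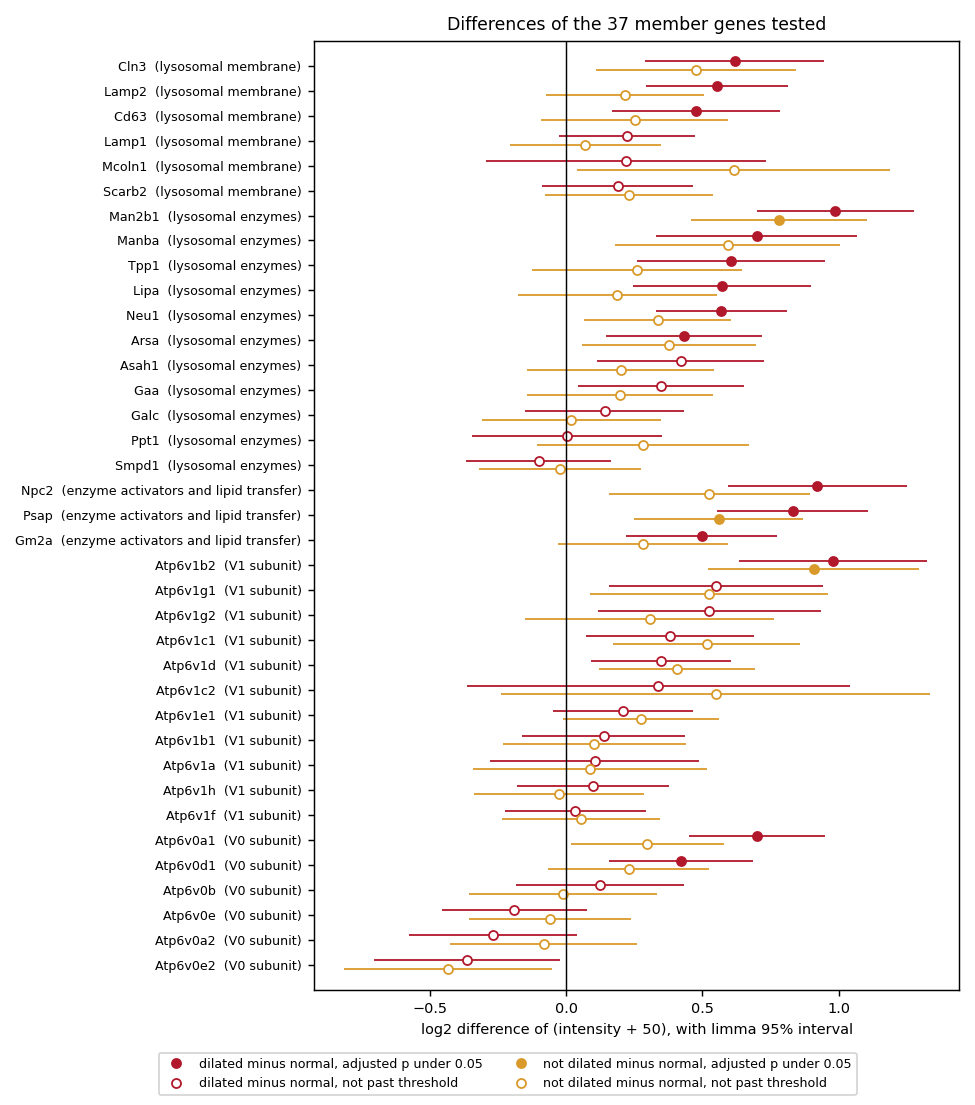
Points are log2 differences from normal with limma's 95% intervals for the 37 tested genes, dilated in red and not dilated in yellow, and filled where the adjusted p was under 0.05. The 15 filled red points and 3 filled yellow points all lie above 0, and the intervals of the 2 groups overlap for every gene.

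Of the members, 9 had more than 1 probe, and 13 further probes of 7 genes were above background on at least 2 arrays. In both dilated minus normal and not dilated minus normal, 10 of the 13 had the sign of the probe used and 10 had a larger log2 difference than it. The p-values that follow are from a fit of all 12913 probes, in which arrays were not left out in turn. For Lamp2, 2 probes (6560327, the one used, and 2060326) are annotated to one RefSeq transcript and 2 (5270358 and 6330561) to another. The first pair had log2 differences of 0.55 and 0.35 in dilated aorta and 0.22 and 0.074 without dilatation. The second pair had 0.96 and 0.92 in dilated aorta (limma adjusted p = 0.00126 and 0.00594) and 0.52 and 0.88 without dilatation (limma adjusted p = 0.0393 and 0.0211). The difference between the transcripts was not tested.

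Probes annotated to one and the same transcript also disagreed. The 2 further probes of Smpd1 (1410017 and 1050215) had log2 differences of 0.79 and 0.83 without dilatation (limma adjusted p = 0.0357 and 0.0411) and 0.19 and 0.36 in dilated aorta, where the probe used had -0.022 and -0.10. A dim probe of Asah1 (130121) had 1.25 without dilatation and 1.05 with it (limma adjusted p = 0.0245 and 0.017), against 0.20 and 0.42 for the probe used. A further Manba probe (780376) had 1.05 and 0.95 (limma adjusted p = 0.0194 and 0.00851), and so passed in both groups. The 3 further probes of Atp6v0d1 had 0.65 to 1.33 without dilatation and 0.57 to 1.06 with it, and none of the 6 values passed (limma adjusted p from 0.0522 to 0.0828). With both MPS VII groups against normal all 3 passed (limma adjusted p = 0.0275, 0.0271 and 0.024). Of the 2 further probes of Cd63, probe 3140193 had 0.73 and 0.60 and probe 5090053 had 0.15 and 0.12, none of them past the threshold. With both MPS VII groups against normal probe 3140193 passed (log2 difference 0.67, limma adjusted p = 0.0212) and probe 5090053 did not (0.14, limma adjusted p = 0.39). In that contrast the 2 further Smpd1 probes passed as well (limma adjusted p = 0.0475 and 0.0357). The further Galc probe, close to background, had the opposite sign in dilated aorta (-0.17 against 0.14).

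An order of the normal arrays recurred in these further probes and was picked out after their values were seen. Normal replicate 3 was the lowest and normal replicate 2 the highest in 9 of the 13, against 9 of the 37 probes used and 23.2% of all 12913 probes above background. The median log2 difference of normal replicate 2 minus normal replicate 3 was 0.53 over the 13, 0.030 over the 37 and 0.00021 over all. For Atp6v0d1 probe 770014 the normal arrays stood at 170.04, 316 and 69.8 against 482 and 488 in not dilated and 300.3, 462 and 437 in dilated aorta. The cause was not tested.

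**Figure D5:**
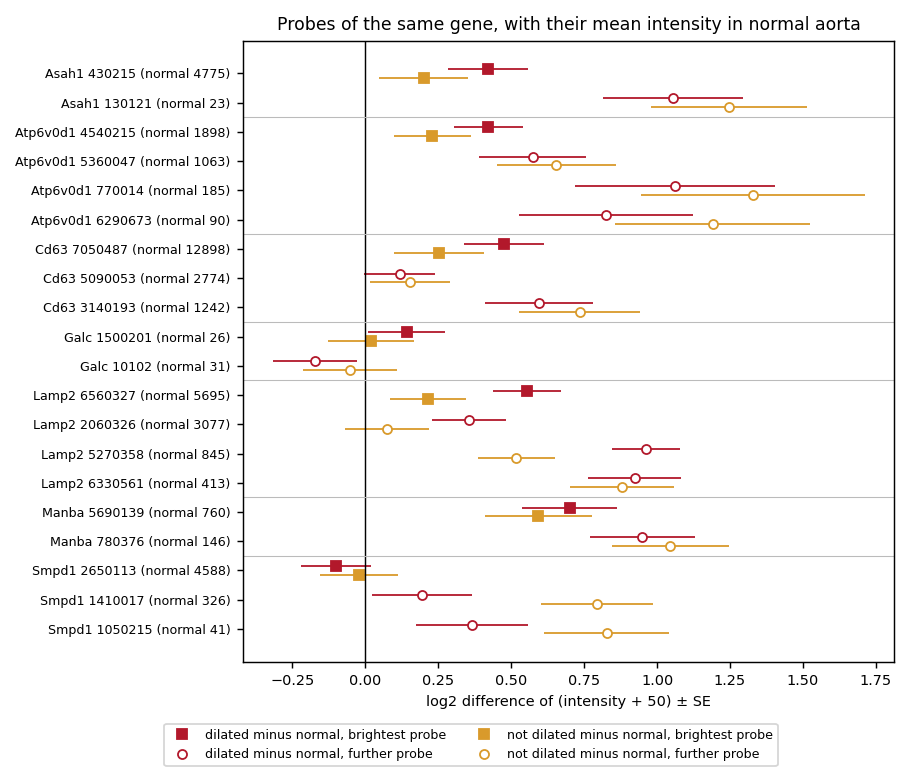
Log2 differences from normal with their SE are shown for every probe above background of the 7 genes with several such probes, squares for the probe used and circles for further probes, with the mean normal intensity beside each name. In each contrast 10 of the 13 circles lie to the right of the square of their gene, and those of Smpd1 lie on the other side of 0.

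Of 9 tested partners of the pump, 2 rose and 0 fell in dilated aorta, and 1 rose without dilatation. Of all genes, 9.82% were called higher and 10.4% lower in dilated aorta, and 4.84% and 5.17% without dilatation. Tcirg1, the large V0 subunit isoform of osteoclasts and macrophages, which the member rule does not reach by its symbol, measured 144, 144 and 149 in normal, 189 and 205 in not dilated, and 322, 271 and 424 in dilated aorta. It rose by 0.97 in dilated aorta (SE 0.15, limma adjusted p = 0.0038). Without dilatation its log2 difference was 0.33 (limma adjusted p = 0.214). Ostm1, which pairs with the chloride transporter of lysosomes, rose by 0.70 and 0.57 (limma adjusted p = 0.00774 and 0.043), and the second call ended without normal replicate 1 or 3, either not dilated array or dilated replicate 1 or 2 (limma adjusted p from 0.057 to 0.17). The accessory subunits Atp6ap1 and Atp6ap2 had log2 differences of -0.0078 and 0.14 in dilated aorta (limma adjusted p = 0.966 and 0.45).

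Among 9 tested enzymes that do act on glycosaminoglycans, 2 rose and 2 fell in dilated aorta, where 9.82% of all genes were called higher and 10.4% lower. Hexa, the alpha chain of hexosaminidase A, rose by 1.06 (limma adjusted p = 0.00165) and Naglu by 0.58 (limma adjusted p = 0.0227), a call that ended without any 1 normal array or dilated replicate 1 or 2 (limma adjusted p from 0.0552 to 0.0771). In the same contrast Gusb fell by 2.20 and the hyaluronidase gene Hyal1 by 1.83 (limma adjusted p = 0.000114 and 0.000837). Without dilatation 0 of the 9 rose and the same 2 genes, Gusb and Hyal1, fell. In that comparison 4.84% of all genes were called higher and 5.17% lower. The Hyal1 call there ended without not dilated replicate 1 (limma adjusted p = 0.0796). Hexa had a log2 difference of 0.56 without dilatation and did not pass (limma adjusted p = 0.051). Of 16 tested genes for delivery of enzymes to lysosomes, 1 rose and 2 fell in dilated aorta and 0 passed without dilatation. The counts in dilated aorta lie near the shares of all genes, 9.82% higher and 10.4% lower. The 0 without dilatation stands against 4.84% higher and 5.17% lower. Neither is read as a result about this list. The log2 difference was 0.47 for Gnptab, which makes the mannose 6-phosphate tag, -0.44 for the adaptor Gga1 and -0.35 for Nagpa, which uncovers the tag (limma adjusted p = 0.0398, 0.0385 and 0.0429). The Naglu, Gnptab, Gga1 and Nagpa calls also ended with age as a covariate. Each of the last 3 calls ended when single arrays were left out, that of Nagpa with any of the 8 (limma adjusted p from 0.0608 to 0.111), that of Gga1 with any normal array or dilated replicate 2 or 3 (0.0618 to 0.115) and that of Gnptab with any array but normal replicate 3 and dilated replicate 3 (0.0549 to 0.107).

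Of 11 tested genes of lysosomal transcription and nutrient sensing, 4 rose and 1 fell in dilated aorta, and 2 rose without dilatation. The shares of all genes were 9.82% higher and 10.4% lower in dilated aorta, and 4.84% higher without dilatation. The Rag GTPase gene Rragc rose by 0.65 and Lamtor1, which anchors the Rag complex to the lysosome, by 0.67 in dilated aorta (limma adjusted p = 0.00863 and 0.0111). Flcn, the folliculin that acts on Rragc and Rragd, rose by 0.59 and 0.74 in dilated and not dilated aorta (limma adjusted p = 0.0428 and 0.046). Rragd lay below background on all 3 normal arrays and was at least 1.49-fold higher over the 5 MPS VII arrays (limma adjusted p = 0.027 in dilated and 0.0222 in not dilated aorta). Rragd passed the background filter through MPS VII arrays alone, the groups in which it was called, so its p-values carry that selection. Rragb fell by 0.70 (limma adjusted p = 0.0114). Age as a covariate ended the Flcn and Rragd calls in dilated aorta. The Flcn calls ended without any 1 normal array or dilated replicate 2, among others (limma adjusted p from 0.0521 to 0.284), and those of Rragd without normal replicate 2 or 3, dilated replicate 1 or 2, or not dilated replicate 1 (limma adjusted p from 0.0551 to 0.148). Tfe3 had a log2 difference of -0.0025 in dilated aorta (limma adjusted p = 0.99), and the genes Tfeb, Tfec, Rptor, Rraga and Lamtor3 were not above background on 2 arrays.

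Markers of cell types moved with the groups as well. Their counts stand against 9.82% of all genes called higher and 10.4% lower in dilated aorta, and 4.84% and 5.17% without dilatation. Of 14 tested macrophage markers 11 were higher and 0 lower in dilated aorta, and 6 higher and 0 lower without dilatation. With both MPS VII groups against normal 9 were higher and 1 lower, where 11.1% of all genes were called higher and 13.3% lower. Cd163 and Mertk went the other way in dilated aorta, at -0.61 and -0.64 on the log2 scale, and did not pass (limma adjusted p = 0.066 and 0.082). The summed intensity of the 14 markers ranged from 3595 to 6308 in normal, 7576 to 12148 in not dilated and 18353 to 24692 in dilated aorta. Cd68 and Csf1r were not analysed here. Of 10 contractile smooth muscle markers 9 were lower and 0 higher in dilated aorta, with sums of 99584 to 126390 in normal, 68644 to 91320 in not dilated and 48335 to 86697 in dilated aorta. Of 5 tested adipocyte markers 4 were higher, with sums of 2270 to 5779, 11312 to 20067 and 11372 to 19697, while Fabp4 and Retn were not above background. Of 2 tested osteoclast markers, Mmp9 and Ctsk, 1 was higher, and Acp5, Ocstamp, Calcr and Oscar were not above background. Of 8 adventitial fibroblast markers 1 was higher and 4 lower, and of 7 endothelial markers 3 were higher. Of 4 tested neutrophil markers 0 passed in dilated aorta and 1, Camp, was higher without dilatation, with list medians of 1.38 and 1.62 on the log2 scale. Camp was above background on the 2 not dilated arrays only. It thus passed the filter through the very group in which it was called, and the call is no separate support. Retnlg too passed the filter through MPS VII arrays alone, so the list medians and sums carry that selection. The sums of the neutrophil markers were -24.7 to 164 in normal, 848 to 1312 in not dilated and 88.4 to 5064 in dilated aorta, and Ngp was not above background. The single Schwann cell marker tested, Mbp, was higher in dilated aorta (log2 difference 0.68, limma adjusted p = 0.0189), at 69 to 104 in normal, 151 to 161 in not dilated and 133 to 211 in dilated aorta. None of the tested lymphocyte (3), cardiomyocyte (3) and erythroid (2) markers passed in either group against normal. The part of these shifts in the results on lysosomal genes was not tested.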

How the data were processed

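Ascending aorta RNA was measured on Illumina arrays, 1 per mouse, and groups follow the labels. The deposited intensity values of 25697 probes were used on their linear scale. The submitters' processing notes name GenomeStudio and Partek with no role, and the steps are otherwise not given in the sources used here. In the values, about 28% lie below 0 on every array and once sorted, values differ between arrays by no more than 0.94, so background subtraction and a common distribution are visible. Changes in total RNA cannot be seen in such values. A further table was not used because no name of its 16 columns could be tied to 1 sample.

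Noise (SD 11) was estimated from values below 0, and its one-sided 0.01 bound of 25.6 set the background. Probes above it on at least 2 arrays were kept (12913), and each gene was represented by its brightest probe. Log2 of intensity plus 50, which understates the change of dim genes, was fitted in limma 3.58.1 (R 4.3.3) with 3 group means over all 8 arrays. P-values are two-sided and Benjamini-Hochberg adjusted over 10040 genes, with a threshold of 0.05. The fit had 5 residual and 4.05 prior degrees of freedom and was tested on simulated data. Gene symbols are those of the platform annotation and all 23141 matched the RefSeq gene table. The number of arrays limits the precision.

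Values on every array are given for members past the threshold in dilated minus normal or both MPS VII groups minus normal and for the 4 brightest members; listed genes of further pathways are named where they passed, at most 4 in each direction. Members and lists were chosen with earlier results of these data known. Protein sequences of subunit isoforms were not compared here. Offsets, filters, probe choice, normalization, weights, age, sex, the replicate number as a block and leaving out each array were tried as alternatives.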

Additional observations from a re-analysis of the deposited data

How the results depend on the processing

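Of 678 gene results under the alternatives (33 calls of member genes, each under 20 or 21 settings), 545 calls were kept, 133 were lost and 0 reversed. Of the calls, 7 of 15 in dilated minus normal, 6 of 15 in both MPS VII groups minus normal and 0 of 3 in not dilated minus normal were kept under every setting run. Of 659 results of the named pathway genes, 549 calls were kept, 110 lost and 0 reversed. The number of members higher in dilated minus normal, 15, was 9 with age as a covariate, 22 with array quality weights, 18 with cyclic loess and 12 with an offset of 16, with no filter or with values floored at 16, and it ranged from 7 to 16 when each array was left out in turn. Members lower ranged from 0 to 1 when each array was left out, in dilated minus normal and in both MPS VII groups minus normal, and numbered 1 with array quality weights in the latter; the gene was Atp6v0e2 each time. Members higher without dilatation, 3, were 5 with cyclic loess and 7 with array quality weights, and ranged from 0 to 4 when each array was left out. Members higher in both MPS VII groups minus normal, 15, were 9 with values floored at 16 and 22 with array quality weights, and ranged from 6 to 17 when each array was left out. In dilated minus not dilated the number of members called was 0 under every setting run.

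The labels give groups the same replicate numbers, but same-numbered arrays did not deviate together in every pair. The correlation of deviations was 0.33 for normal and not dilated replicate 1, both females of 5.8 months, and 0.30 for normal and not dilated replicate 2, both males. It lay between -0.19 and 0.037 for the other 5 pairs, all of which include a dilated array. In a group of 2 arrays the deviations from the group mean mirror each other, so the values 0.33 and 0.30 are not independent. Correlations of arrays with unlike numbers are not given here, so no baseline stands beside these values. The labels name no shared litter, batch or day, and the numbers were not taken to pair the arrays. With the replicate block the counts higher were 15 in dilated minus normal, 2 in not dilated minus normal and 10 in both groups minus normal, and 7 of the 33 calls were lost.

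Genes near the background bound, such as Galc and Atp6v1b1, have differences that depend on the offset, and groups of 2 and 3 mice leave intervals of the width printed in the text. The dilated mice were on average older, so age and dilatation are only partly separable with 8 mice.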
